A study of Arabidopsis thaliana with 9 samples.

Results

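The response of Arabidopsis thaliana shoots to flooding with physical flow was examined by comparing 3 flooding samples with 3 control samples, which are 6 of the 9 samples sequenced. Genes were kept when their mean FPKM (fragments per kilobase, scaled to the total of mapped reads) over these 6 samples was at least 0.5, which left 18806 of the 32833 genes listed. All plants were of the Columbia-0 ecotype, about 4 weeks old, and each sample was a pool of rosettes. Flooded plants were fixed in an open channel for 30 min while water ran past them at 8 L/s, control plants received no such treatment, and the 3 submergence samples, used here only for comparison, stood in still water for 30 min. The flooding plants were therefore under water as well as in a current, and only the comparison with submergence bears on the flow itself. The paper describes the submerged plants as held in a plastic container, so the vessel differed as well. Of the genes left out, 8233 are listed at 0 in all 6 samples, and the gene just inside the threshold, AT1G03920, had a mean FPKM of 0.50 against 0.498 for AT1G25530 just outside it.

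Plants sense bending, contact and wounding through the cell wall and membrane, and within minutes calcium enters the cytosol, reactive oxygen species (ROS) are made by membrane oxidases, and mitogen-activated protein kinases are switched on. Early-response genes follow, among them touch genes, calmodulin-like calcium sensors, and ERF, zinc finger and WRKY transcription factors, and the defense hormones jasmonic acid (JA) and salicylic acid (SA) are produced. Submerged tissue can also run short of oxygen, which stabilises the group VII ERF factors and turns on genes of fermentation.

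The tissue label was checked against markers. The summed FPKM of 6 leaf mesophyll markers was 33642 to 41732 in the flooding samples and 42682 to 48513 in the control samples. The 9 root markers summed to 3.86 to 14.2 under flooding and to 8.35 to 10.98 in the controls, with EXPA7, EXPA18 and CASP2 listed at 0 in all of them, and the 8 flower markers stayed at or under 1.92. Among 5 seed markers SESA1, a storage albumin, was the one tested, and it moved from 0.03, 0.07 and 0.59 FPKM in control to 2.89, 2.09 and 3.15 under flooding. The other seed markers were at or near 0.

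Flooding 3 stood apart from flooding 1 and 2. In a principal component analysis the first component (60.4% of the variance) separated the groups, and the second (19.5%) put flooding 3 at 54.5 against -23.9 and -34.9 for the other flooding samples. The median SD of the log2 values was 0.186 among flooding samples and 0.113 among controls. Counts over all genes are therefore also given without flooding 3, as are those of most gene lists. Read depth per gene is not known from FPKM, so errors are the spread between samples.

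Flooding with physical flow changed the shoot transcriptome broadly, and the rises were larger than the falls. Rises were also fewer in the fit given next, an order that reversed after the median-of-ratios rescaling described below. By limma on log2(FPKM + 0.1), 2137 transcripts were up-regulated (11.4% of those tested) and 3229 were down-regulated (17.2%) at a Benjamini-Hochberg adjusted p under 0.05, 28.5% together. The median log2 fold change was 1.15 among the up-regulated transcripts and -0.57 among the down-regulated, against -0.10 over all genes tested. Limited to changes of 2-fold or more, there were 1201 up-regulated (6.39% of genes tested) and 456 down-regulated transcripts (2.42%). The numbers fell to 226 and 4 at 8-fold and to 21 and 1 at 32-fold. The up-regulated transcripts included many that were scarce before the stress. Those that rose at least 8-fold had a median FPKM of 2.22 in control and 35.2 under flooding, while the median control level was 10.4 for all genes tested and 15.97 for the down-regulated. Their genes were also short, with a median span of 1478 bp against 2393 bp.

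All 3 flooding samples lay above all 3 control samples for 2975 genes (15.8%) and below them for 5788 (30.8%). With 3 samples a side the smallest two-sided p of an exact permutation test is 0.1, so calls rest on the spread shared across genes, and adjusted p measure the spread between these samples. Without flooding 3 the counts were 2697 up and 3436 down (14.3% and 18.2%), without flooding 1 they were 1774 and 2409 (9.45% and 12.8%), without flooding 2 1938 and 3100 (10.3% and 16.5%), and leaving out control 1, 2 or 3 reduced the down-regulated count to 1814, 1643 or 1777. Rescaling by median of ratios, which moved the median of all genes to -0.01, gave 2597 up and 2333 down, so that 52.7% of the calls were up in place of 39.8%.

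**Figure D1:**
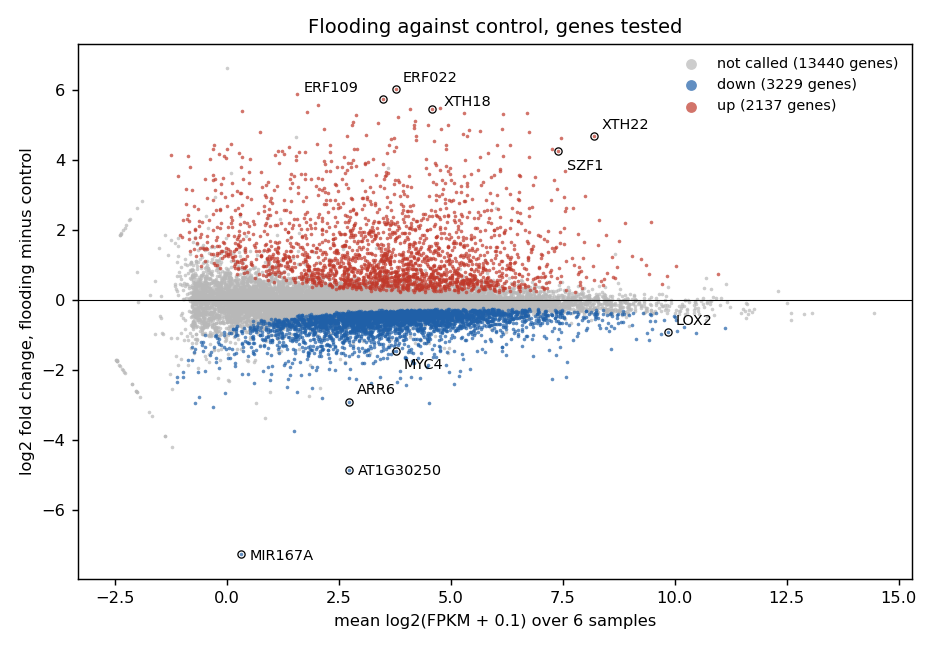
Log2 fold change (flooding minus control) of each gene tested against its mean log2(FPKM + 0.1) over the 6 samples, with 2137 up-regulated genes in red, 3229 down-regulated genes in blue and uncalled genes in grey. The red points reach much further from 0 than the blue ones, and the lowest point, MIR167A, is a gene listed at 0 in every flooding sample, so its position depends on the added 0.1.

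Among genes chosen for a mean of at least 5 FPKM in 1 group and no overlap, ERF022, an AP2/ERF transcription factor, had the largest log2 fold change. Its FPKM was 2.03, 0.88 and 2.18 in the control samples and 113, 103 and 114 in the flooding samples. The groups were far apart and the flooding samples lay close together. The mean rose 64.8-fold, from 1.70 ± 0.71 to 110 ± 5.8 (SD, n = 3), with a log2 fold change of 6.03 ± 0.30 (SE) and an adjusted p of 1.1e-05 in limma. ERF109, a factor named for its response to redox state, was at 2.11, 0.61 and 2.17 in control and at 76.3, 58.7 and 122 under flooding, with the highest value in flooding 3 (log2 fold change 5.74 ± 0.47). ERF105, known from cold responses, was at 16.1, 5.34 and 16.02 in control and at 433, 430.5 and 491 under flooding (5.32 ± 0.39). The flooding samples of both factors lay above every control sample, which the rule for choosing them required.

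Enzymes that inactivate hormones were among the 12 largest rises. CYP94C1, which oxidises the active JA conjugate, was at 1.73, 2.97 and 2.89 FPKM in control and at 108, 71.8 and 188 under flooding (log2 fold change 5.47 ± 0.35, adjusted p in limma 3.4e-05). CYP707A3, which breaks down abscisic acid, was at 7.89, 3.81 and 7.24 in control and at 267, 231 and 260.2 under flooding (5.37 ± 0.25, adjusted p in limma 9.8e-06). The 3 flooding values of CYP94C1 were spread over more than a 2-fold range, those of CYP707A3 were not.

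Cell wall and surface genes formed another part of the largest rises. XTH18, a xyloglucan endotransglucosylase that cuts and rejoins wall polymers, was at 1.73, 4.05 and 6.14 in control and at 162, 145 and 174 under flooding (log2 fold change 5.47 ± 0.39). EXL1 (AT1G35140), a phosphate-responsive protein of the EXORDIUM family that is also a known hypoxia gene, was at 7.84, 22.2 and 24.5 in control and at 675, 609 and 732 under flooding (5.36 ± 0.39). It moved from rank 6632 to rank 130 among the listed genes by mean FPKM. The zinc finger gene ZAT7 was at 4.94, 2.48 and 4.78 in control and at 166, 164 and 217 under flooding (5.51 ± 0.26). AT3G09870, a SAUR-like gene, moved from 0.47, 0.25 and 0.93 to 26.6, 27.1 and 31.95, and thus rose where most SAUR genes that changed fell. AT4G02170, annotated as a cotton fiber protein, was at or under 0.17 in control and at 7.36, 9.71 and 7.78 under flooding. AT5G11140, of the PEARLI 4 family, was at or under 0.60 in control and at 19.6, 20.2 and 26.9 under flooding. The remaining member of the 12, the chloroplast gene PSBN, was listed at 5.51, 0 and 0 in control and at 15.8, 44.1 and 17.3 under flooding, so no fold is given for it.

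**Figure D2:**
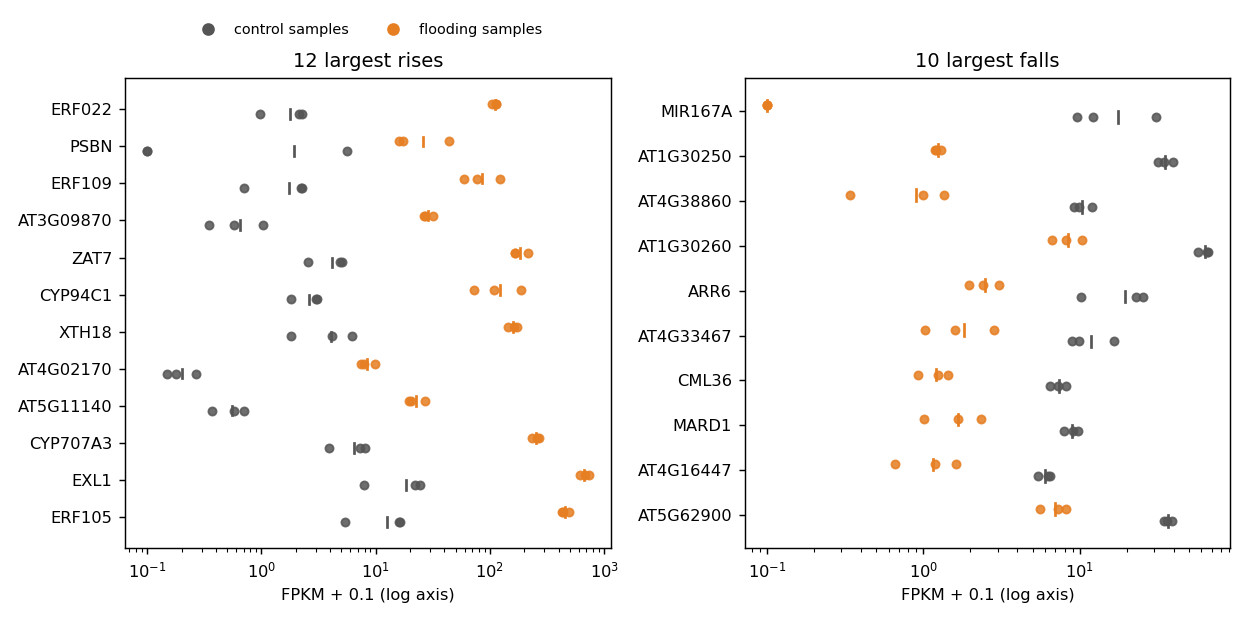
FPKM plus 0.1 (log axis) in each control sample (grey) and flooding sample (orange) for the 12 largest rises and 10 largest falls, with bars at the group means. Groups do not overlap for any gene shown, which the rule for choosing them required, and ERF022 moves from about 2 to above 100 FPKM.

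The windows upstream of these genes were read from RefSeq, on the assembly TAIR10.1, for the 250 bases before the annotated start. Of the 11 largest rises with a window, 4 held the CAMTA element CGCGTT on either strand, which calmodulin-binding CAMTA transcription factors are known to bind. They are printed 5′ to 3′ on the gene's strand with the element or its reverse complement in capitals, together with that of the JA synthesis gene LOX4, which also holds it.
XTH18, chr4:14827212-14827461, minus strand: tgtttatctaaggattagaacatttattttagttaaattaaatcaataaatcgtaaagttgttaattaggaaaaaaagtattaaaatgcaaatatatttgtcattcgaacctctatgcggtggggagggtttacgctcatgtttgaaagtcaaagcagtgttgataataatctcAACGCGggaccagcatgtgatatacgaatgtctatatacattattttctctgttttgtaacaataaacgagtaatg
AT4G02170, chr4:957795-958044, plus strand: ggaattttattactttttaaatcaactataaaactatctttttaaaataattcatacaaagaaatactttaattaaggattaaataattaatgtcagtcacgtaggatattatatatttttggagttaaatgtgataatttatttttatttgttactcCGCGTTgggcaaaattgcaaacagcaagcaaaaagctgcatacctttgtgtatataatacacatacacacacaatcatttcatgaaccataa
AT5G11140, chr5:3544961-3545210, plus strand: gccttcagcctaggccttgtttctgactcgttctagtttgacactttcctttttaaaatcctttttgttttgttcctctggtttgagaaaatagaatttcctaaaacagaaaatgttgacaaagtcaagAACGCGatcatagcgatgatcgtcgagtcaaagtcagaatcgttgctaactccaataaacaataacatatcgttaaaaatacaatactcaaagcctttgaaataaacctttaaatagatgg
EXL1, chr1:12851733-12851982, plus strand: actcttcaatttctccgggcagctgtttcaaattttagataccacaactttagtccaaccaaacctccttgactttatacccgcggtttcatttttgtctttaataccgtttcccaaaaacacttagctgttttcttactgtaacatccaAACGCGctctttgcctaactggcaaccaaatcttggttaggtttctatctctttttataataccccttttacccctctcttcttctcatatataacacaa
LOX4, chr1:27308263-27308512, plus strand: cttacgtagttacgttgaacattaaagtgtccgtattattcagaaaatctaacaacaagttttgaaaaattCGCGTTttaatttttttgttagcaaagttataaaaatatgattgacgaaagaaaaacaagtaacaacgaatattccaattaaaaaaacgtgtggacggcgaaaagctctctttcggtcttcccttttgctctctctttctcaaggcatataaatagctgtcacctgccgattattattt
On the printed strand the first base of the element lies 76 bases before the start in XTH18, 92 in AT4G02170, 121 in AT5G11140, 100 in EXL1 and 179 in LOX4. These genes rose from 33.2-fold (LOX4) to 82.8-fold (AT4G02170) by their means, and the fold of AT4G02170 is uncertain because its control values lie near the floor.

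Over all 18678 tested genes with a window, 2.89% held CGCGTT on either strand. The share was 13.8% among the 225 genes that rose at least 8-fold, 9.64% among those that rose 4-fold to 8-fold, 7.15% at 2-fold to 4-fold and 5.88% below 2-fold. It was 2.44% among genes that were not called, 1.63% among those that fell less than 2-fold and 1.32% among the 456 that fell at least 2-fold. The share thus rose at each step of the size of the change. The W-box, to which WRKY factors bind, was also more frequent among genes that rose, although not at each step. Its form TTGACC was held by 23.6% of the windows of genes that rose at least 8-fold and by 6.80% of those of genes that fell at least 2-fold (12.2% over all), and its form TTGACT by 37.8% and 16.5% (18.7% over all).

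The other elements varied less with the change. The G-box CACGTG was held by 8.44% of the windows at 8-fold and above (7.46% over all), the GCC box GCCGCC bound by ERF factors by 3.11% (2.07% over all) and the DRE core CCGACA bound by DREB factors by 4.44% (4.70% over all). The G-box share was 10.6% at 4-fold to 8-fold, 9.39% at 2-fold to 4-fold, 9.83% among smaller rises and 6.14% among falls of at least 2-fold. The GCC box share was lowest, at 1.07%, among rises below 2-fold. The median GC content was 31.6% both over all windows and at 8-fold and above. These shares describe letters in a window, and carry no test. Among the CAMTA genes only CAMTA3 is given here, looked up after these shares were seen. It moved from 30.9, 29.5 and 32.1 FPKM in control to 68.1, 59.8 and 64.1 under flooding. Its log2 fold change was 1.05 (adjusted p in limma 9.5e-05). The part of CAMTA factors in these changes was not tested.

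**Figure D3:**
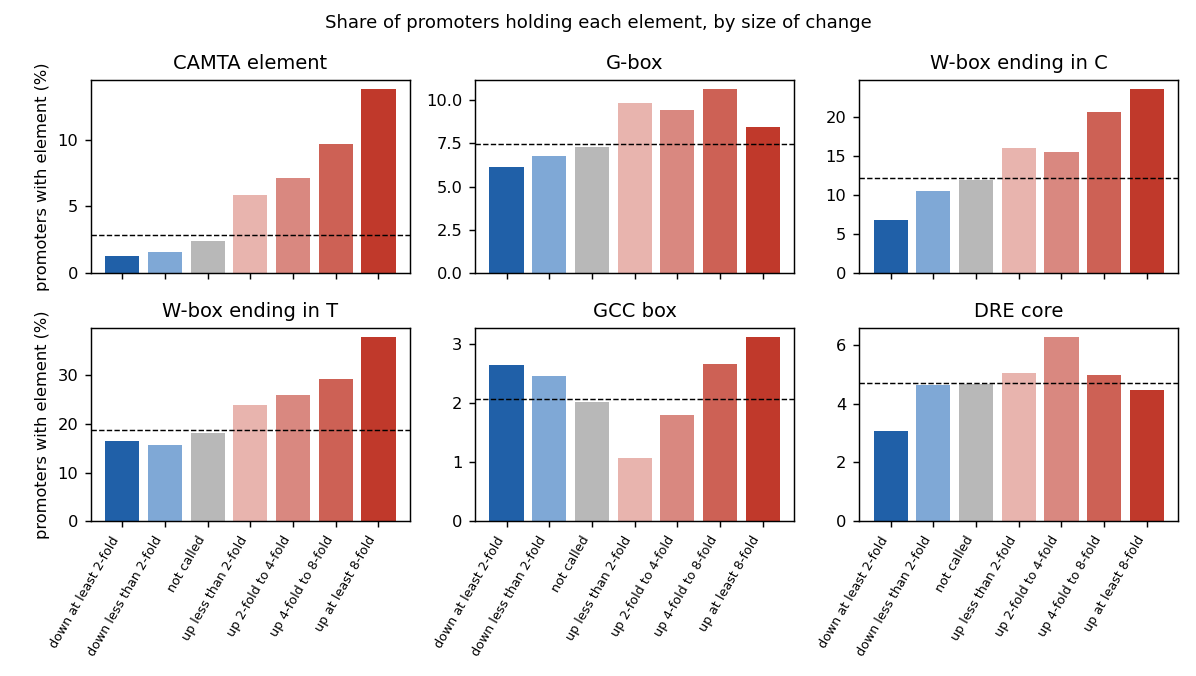
Share of 250-base upstream windows (%) that hold each of 6 elements on either strand, by direction and size of the change, with dashed lines at the share over all 18678 windows. The CAMTA element climbs from 1.32% to 13.8% and the W-box ending in C from 6.80% to 23.6%. The G-box, GCC box and DRE core stay nearer their dashed lines, with the G-box above its line in every up bin.

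Most of the listed touch genes and calmodulin-like (CML) calcium sensors rose together. Of 20 members tested 15 were up-regulated (11.4% over all genes), with a median log2 fold change of 1.69. The list was chosen with earlier results known and leaves out CML36, which is given below among the largest falls. The absence of falls therefore holds for the listed members only. All 4 classical touch genes rose. XTH22 (TCH4), a wall-modifying enzyme, was at 37.4, 60.4 and 86.9 FPKM in control and at 1431, 1374 and 1711 under flooding, which moved it from rank 2063 to rank 42 by mean FPKM (24.5-fold, log2 fold change 4.69 ± 0.28). CML12 (TCH3) was at 300.5, 284 and 414 in control and at 1664, 1289 and 1698 under flooding (4.66-fold). CML24 (TCH2) was at 33.1, 31.7 and 34.0 in control and at 247, 253 and 247 under flooding (7.55-fold, adjusted p in limma 3.2e-06). The calmodulin gene CAM2 (TCH1) rose least of them, from 57.7 ± 7.4 to 109 ± 12 (SD, n = 3). For none of these 4 genes did a flooding sample reach down to a control sample.

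In this list CML37 and CML40 changed most. CML37, a wound-induced sensor, was at 3.05, 1.13 and 3.06 in control and at 80.3, 84.5 and 98.3 under flooding (log2 fold change 5.25 ± 0.35). CML40 rose by 5.01 ± 0.24, CML38 by 4.11 ± 0.25 and CML46 by 3.72 ± 0.19 on the log2 scale. The 5 members that did not pass the test were CML39, CML47, CML35, CML10 and CML30, between -0.31 and 0.72. Without flooding 3, 17 members rose.

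Pumps, channels and proposed mechanosensors moved less. Of 18 tested, 6 rose and 3 fell (11.4% and 17.2% over all genes), with a median of -0.03. OSCA1.3, a calcium channel of the OSCA family, rose from 7.43 ± 0.65 to 28.4 ± 12 FPKM (SD, n = 3), and FER, a receptor kinase that monitors the wall, from 68.4 ± 3.4 to 108 ± 5.7. MCA2 rose by 0.68 on the log2 scale and its relative MCA1 was at -0.03, while the stretch-activated channel gene MSL10 was at -0.03. The vacuolar calcium pump gene ACA4 fell from 58.2 ± 1.7 to 30.2 ± 1.1, and the other members that fell were GLR3.4 (-0.45) and CNGC2 (-0.41).

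AP2/ERF factors known for rapid induction were chosen as a list, and 19 of the 26 tested rose (11.4% over all genes), with a median of 2.27. Beside ERF022, ERF109 and ERF105, the rises were 5.02 ± 0.29 on the log2 scale for ERF13, 4.44 ± 0.19 for ERF11, 4.21 ± 0.18 for ERF6 and 3.7 ± 0.18 for ERF104. DREB1F was at 1.38, 0.70 and 1.12 in control and at 9.92, 17.2 and 33.5 under flooding (3.99 ± 0.43), and the cold regulator DREB1C rose by 2.75. DREB1B moved by 0.52 and did not pass the test (adjusted p in limma 0.22). ERF053 fell, by 2.11 on the log2 scale. ORA47, an activator of JA synthesis genes, rose from 1.35 ± 0.28 to 8.27 ± 1.3 FPKM.

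Of 13 zinc finger regulators 12 rose (11.4% over all genes), with the highest median of all lists, 3.2. SZF1, a CCCH protein, was at 41.8, 31.0 and 42.3 in control and at 777, 655 and 799.5 under flooding (log2 fold change 4.28 ± 0.14, adjusted p in limma 4.2e-06). ZAT12, known from ROS and abiotic stress responses, was at 17.9, 13.5 and 17.9 in control and at 160.4, 151 and 171 under flooding. ZAT10 rose by 3.94 and AZF1 by 3.93 on the log2 scale. ZAT5 was the member that fell (-0.67), a call lost after median-of-ratios rescaling and without any 1 control, flooding 1 or flooding 3.

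WRKY factors, which act in defense, mostly rose where they changed. Of 49 tested, 17 rose and 4 fell (11.4% and 17.2% over all genes), with a median of 0.29. WRKY40 was at 14.7, 8.36 and 17.6 in control and at 449, 291 and 446 under flooding (4.89 ± 0.29), WRKY18 and WRKY46 each rose by 4.32 on the log2 scale, and WRKY33 was at 51.2, 40.2 and 53.6 in control and at 585, 464 and 527 under flooding (3.44 ± 0.14). The WRKY genes that fell were WRKY3, WRKY45, WRKY4 and WRKY47, between -0.78 and -0.33, and without flooding 1 there were 7 falls. NAC factors were split, with 14 up and 9 down of 48, the falls being close to the 17.2% over all genes and 5 without control 2 or control 3. The largest rise was that of NAC090 (3.96 ± 0.26), and NAC062, a membrane-bound factor of stress responses, rose 5.16-fold.

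Immune receptors and MAP kinases rose in 13 of 20 cases (11.4% over all genes), with a median of 0.86. MPK3, a kinase of the immune cascade, was at 77.0, 63.3 and 60.7 in control and at 528, 478 and 543 under flooding (7.71-fold, log2 fold change 2.95 ± 0.11). MPK11 moved from 1.51 ± 0.28 to 22.1 ± 0.47 FPKM (SD, n = 3), while MPK6 was the member that fell (-0.26), a call lost after median-of-ratios rescaling, with the replicate block and without any 1 of the 6 samples. The genes of both receptors of the danger peptides Pep rose, PEPR1 by 2.32 and PEPR2 by 2.23 on the log2 scale. BAK1, the co-receptor of several immune receptors, rose by 0.58, and the flagellin receptor gene FLS2 was at 0.41 (adjusted p in limma 0.08).

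Without flooding 3 the rises numbered 18 among the AP2/ERF factors, 12 among the zinc finger regulators, 22 among the WRKY factors, 13 among the NAC factors and 14 among the immune receptors and MAP kinases.

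**Figure D4:**
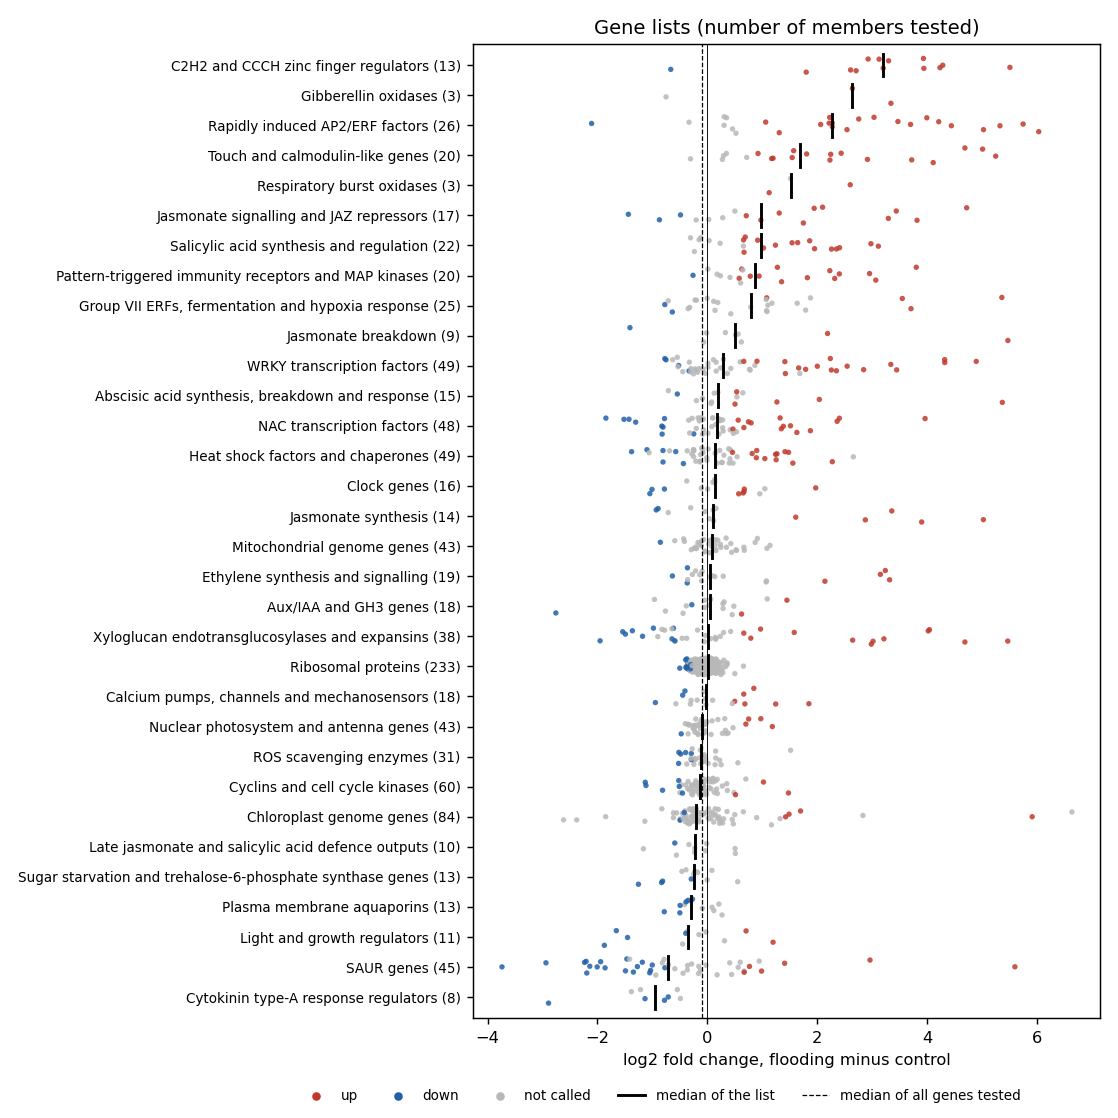
Log2 fold change (flooding minus control) of each tested member of 32 gene lists, ordered by median, with up-regulated members in red, down-regulated in blue, uncalled in grey, black bars at list medians and a dashed line at the median of all genes tested (-0.10). Zinc finger, AP2/ERF and touch lists lie far to the right, SAUR and type-A response regulator lists to the left, and ribosomal proteins around 0.

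JA synthesis genes moved in both directions. Of 14 tested 5 rose (7 without flooding 3), 2 fell and 7 did not pass the test, where 11.4% of all genes rose and 17.2% fell. LOX4, a 13-lipoxygenase of the first step, was at 6.21, 4.31 and 5.42 in control and at 176, 139.5 and 214 under flooding (33.2-fold, log2 fold change 5.02 ± 0.18). LOX3, its close relative, was at 11.9, 10.09 and 9.5 in control and at 109, 66.6 and 172 under flooding (3.36 ± 0.31). AOC3 rose by 3.90 and OPR3, which acts in the peroxisome, by 1.61 on the log2 scale. AOS, of the second step, was at 142, 158 and 214 in control and at 185, 119 and 201 under flooding, with overlapping groups. AOC2 and LOX2, the more abundant leaf forms, fell by 0.93 and by 0.90 on the log2 scale. Neither fall passed after median-of-ratios rescaling, with all 9 samples in one fit, or without control 2 or control 3.

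Among JA signaling genes, mainly repressors rose. Of 17 signaling genes tested 10 rose and 3 fell (11.4% and 17.2% over all genes). Of the 10 that rose 8 encode JAZ proteins, which hold back the MYC factors. JAZ7 moved from 1.59 ± 0.29 to 46.7 ± 20 FPKM (SD, n = 3), JAZ8 from 1.78 ± 0.61 to 27.9 ± 14, and JAZ1 from 40.4, 34.6 and 34.6 to 429, 260 and 411. JAZ5, JAZ13, JAZ10, JAZ6 and JAZ9 also rose, by between 0.71 and 3.44 on the log2 scale. MYC2, the leading activator, rose by 1.31, whereas MYC4, MYC3 and the JA receptor gene COI1 fell, by 1.44, 0.49 and 0.87. In JA breakdown, CYP94B3 rose by 2.19 beside CYP94C1, and the sulfotransferase gene ST2A fell by 1.41, a call lost without any 1 control. Without flooding 2, 4 breakdown genes rose. Without flooding 3, 10 signaling genes rose and 3 fell.

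SA genes rose widely. Of 22 tested 15 rose (11.4% over all genes), 16 without flooding 3, and 7 did not pass the test. CBP60G, which activates the SA synthesis gene ICS1, was at 13.5, 10.4 and 11.4 in control and at 112, 93.4 and 102 under flooding (8.68-fold, adjusted p in limma 5.5e-06), and its partner SARD1 rose 8.00-fold. ICS1 itself was at 9.69, 8.89 and 8.14 in control and at 15.3, 14.04 and 13.8 under flooding (1.62-fold). The SA transporter gene EDS5 rose 3.21-fold, PBS3 4.03-fold, PAD4 5.27-fold, EDS1 2.92-fold and the SA receptor gene NPR3 4.82-fold. The flooding samples were higher than every control sample for 16 of the 22, against 15.8% of all genes.

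Genes at the output end of JA and SA defense showed no such rise at 30 min. Of 10 tested, PR4 fell, by 0.59 on the log2 scale, and the others did not pass the test, while 2 fell without flooding 1. PR1, the SA marker, was at 31.4, 50.1 and 21.5 in control and at 60.1, 21.8 and 7.92 under flooding. VSP2, a JA output of leaves, was at 61.2, 46.4 and 38.02 in control and at 52.3, 68.3 and 18.6 under flooding. In both genes the groups overlapped, and flooding 3 gave the lowest value of the 6.

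The ROS-producing oxidases were represented by 3 genes above the threshold. RBOHD was at 26.9, 22.7 and 23.2 in control and at 151, 140.2 and 150.1 under flooding (6.07-fold, log2 fold change 2.60 ± 0.09, adjusted p in limma 4.4e-06). RBOHF rose 2.20-fold. RBOHC was at 0.45, 0.42 and 0.25 in control and at 2.75, 1.07 and 0.60 under flooding (adjusted p in limma 0.07). None of the flooding samples of these genes fell among the controls.

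Scavenging enzymes gave 6 falls of 31 tested, a share near the 17.2% over all genes. These were DHAR2, AOX1A, FSD1, CSD3, CAT1 and GPX6, lower by between 0.29 and 0.52 on the log2 scale. The catalase gene with the highest level, CAT3 AT1G20620, was at 1521 ± 243 FPKM in control and at 1293 ± 141 under flooding (SD, n = 3) and did not pass the test. After median-of-ratios rescaling 2 fell and 2 rose, without flooding 3 there were 8 falls and 5 rises, and without any 1 control or flooding 1 there were 2 falls.

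Of 19 ethylene genes 4 rose and 3 fell, and of 15 abscisic acid genes 5 rose and 1 fell (11.4% and 17.2% over all genes). The share of ethylene genes that fell was thus near that over all genes. The ethylene genes that rose, ACS7, ACS11, ACS8 and ACS6, all encode ACC synthase, the rate-limiting enzyme of ethylene synthesis. ACS11 was at 2.37, 2.95 and 3.4 in control and at 29.2, 27.4 and 27.3 under flooding, and ACS6 at 11.3, 7.03 and 9.6 in control and at 41.9, 42.8 and 37.2 under flooding. The signaling genes EIN2, CTR1 and EIL1 fell by 0.64, 0.37 and 0.36 on the log2 scale, and the receptor gene ETR1 was at 0.04. Without flooding 3, 7 ethylene genes rose, and without control 1 or control 3, 1 fell. For abscisic acid, both breakdown genes CYP707A3 and CYP707A1 rose, the latter 4.27-fold, while NCED3 of synthesis was at 0.54 (adjusted p in limma 0.26). HAI1, ABI1 and RD20 rose as well, and RD29A fell, a call lost without any 1 control. Of 3 gibberellin oxidase genes tested, GA2OX6 and GA2OX2, which inactivate gibberellin, rose 10.95-fold and 6.44-fold.

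The hypoxia and fermentation genes were divided between the flooding samples. Of 25 tested, 4 rose and 2 fell (11.4% and 17.2% over all genes), with a median of 0.79. The rises were EXL1, SRO5, AT4G24110 and HRE1, and the falls PDC2 and AT4G27450. Without any 1 control there was 1 fall. HRE1, a group VII ERF, was at 6.11, 7.70 and 9.49 in control and at 15.8, 16.9 and 16.1 under flooding (2.09-fold, adjusted p in limma 0.0021). The other hypoxia genes mostly had no such uniform rise. ADH1, alcohol dehydrogenase of fermentation, was at 3.79, 3.95 and 4.36 in control, at 8.20 and 7.16 in flooding 1 and 2, and at 1.38 in flooding 3. HB1, a hemoglobin, was at 1.61, 1.04 and 1.1 in control, at 4.47 and 4.49 in flooding 1 and 2, and at 0.93 in flooding 3. PCO1, an oxygen-dependent oxidase that marks group VII ERFs for breakdown, was at 1.14, 0.61 and 0.96 in control, at 3.4 and 3.42 in flooding 1 and 2, and at 0.29 in flooding 3. In all 3 genes flooding 1 and 2 lay above, and flooding 3 below, every control sample.

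This pattern was shared by 13 of the 25 genes (52%), against 1079 of all genes tested (5.74%). It was not particular to hypoxia genes. The same pattern held for 63 of 233 ribosomal protein genes (27.0%) and 11 of 60 cyclins and cell cycle kinases (18.3%). The reverse, flooding 1 and 2 below and flooding 3 above all controls, held for 13 of 43 photosystem and antenna genes and 244 of all 18806. Without flooding 3, 16 of the 25 rose and 2 fell, with a median of 1.49, where 14.3% of all genes rose. ADH1 then had a log2 fold change of 0.91 (adjusted p in limma 0.0022) and HB1 of 1.79. Without flooding 1, 4 of 22 tested rose and 3 fell (9.45% and 12.8% over all genes), with a median of -0.03. Without flooding 2, 4 of 25 rose and 3 fell (10.3% and 16.5% over all genes), with a median of 0.26. By sample, the median of the list relative to the control mean was 1.47, 1.14 and -0.71 in flooding 1, 2 and 3, and 1.6, 1.16 and -0.27 in submergence 1, 2 and 3. The group VII factors RAP2-12 and RAP2-2, which act as oxygen sensors through their protein stability, were at -0.20 and -0.23 and did not pass the test.

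The summed shoot apex markers were also lowest in flooding 3, although 0 of the 3 tested met the full pattern. Of 8, 3 passed the FPKM threshold, and the 8 summed to 0.63 to 11.04 FPKM under flooding, with the lowest sum in flooding 3, and to 0.93 to 6.44 in control. STM, which defines the shoot meristem, was at 1.28, 0 and 1.05 in control and at 2.11, 3.28 and 0.02 under flooding, and CLV3 was listed at 0 throughout. Relative to the control mean, the median of the 3 tested was 1.95, 2.26 and -1.91 in flooding 1, 2 and 3. It was 2.94, 1.86 and -1.85 in submergence 1, 2 and 3, so the split was not particular to flooding. The control samples also differed in these markers, with the lowest sum in control 2. Their part in the hypoxia pattern was not tested.

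**Figure D5:**
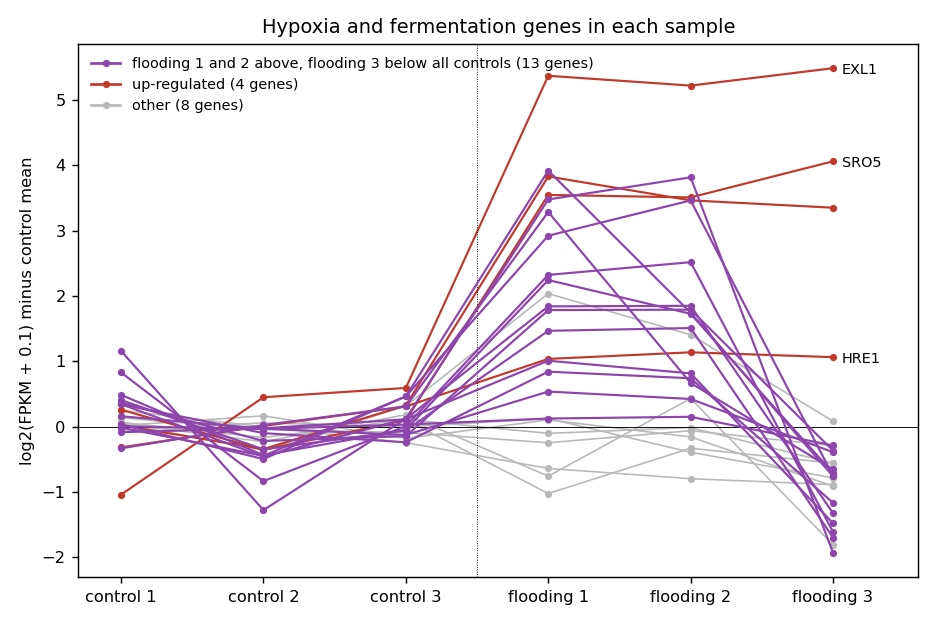
Log2(FPKM + 0.1) of 25 hypoxia and fermentation genes in each control and flooding sample, relative to the gene's control mean, with 1 line per gene. The 13 purple genes are high in flooding 1 and 2 and below all controls in flooding 3, whereas the 4 red genes, among them HRE1, stay high in all 3 flooding samples.

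Heat shock factors and chaperones gave 12 rises and 6 falls of 49 tested (11.4% and 17.2% over all genes), with a median of 0.14. There were 16 rises without flooding 3, 7 rises without control 2, and 3 falls without any 1 control. The factors HSFB2A, HSFB2B and HSFB1 were among the rises, with 4.88-fold, 2.99-fold and 2.80-fold higher means. Among chaperones the changes were mixed, with HSP70-3 and HSP90-1 up by 1.04 and 0.81 and HSP70-5 and HSP1 down by 1.1 and 1.38 on the log2 scale.

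The largest falls included several small genes of auxin and cytokinin response. AT4G38860, a SAUR-like gene, was at 9.06, 11.9 and 9.81 FPKM in control and at 0.24, 1.25 and 0.90 under flooding (12.9-fold lower, log2 fold change -3.74 ± 0.47, adjusted p in limma 0.001). ARR6, a type-A response regulator that damps cytokinin signaling, was at 22.8, 25.3 and 10.08 in control and at 1.87, 2.95 and 2.31 under flooding (8.15-fold lower). CML36 was at 7.2, 6.4 and 8.08 in control and at 1.34, 1.14 and 0.82 under flooding. This was against the direction of the listed CML genes that changed, and CML36 was not in that list. All flooding samples of the 3 genes lay below all controls, which the rule for choosing the largest falls required.

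The neighbouring genes AT1G30250, an uncharacterized protein, and AT1G30260, annotated as a galactosyltransferase family protein, both fell. AT1G30250 was at 34.7, 39.4 and 31.5 in control and at 1.09, 1.2 and 1.11 under flooding, 31.1-fold lower. AT1G30260 was at 56.7, 66.4 and 65.6 in control and at 8.06, 6.53 and 10.3 under flooding, 7.58-fold lower. The rest of the 10 largest falls were AT4G33467, MARD1, AT4G16447 and AT5G62900, with log2 fold changes between -2.78 and -2.40, and MIR167A. The precursor gene of miR167, MIR167A was listed at 12.04, 9.5 and 30.6 FPKM in control and at 0 in all flooding and all submergence samples, so no fold is given.

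SAUR genes, which promote cell expansion downstream of auxin, were tested as a family of 45 by their RefSeq product. Of these 18 fell and 6 rose, with a median of -0.71, and 17 of the falls were at least 2-fold (11.4% and 17.2% of all genes rose and fell). Without flooding 3, 17 fell and 4 rose, and without control 1 or control 3, 3 rose. AT4G38840 was at 27.6, 33.4 and 32.9 FPKM in control and at 6.69, 7.17 and 6.20 under flooding (4.68-fold lower, adjusted p in limma 1.1e-05), with no overlap. SAUR41 fell by 2.14, SAUR15 by 2.01, SAUR32 by 1.49 and SAUR71 by 1.35 on the log2 scale. Several SAUR genes lie in clusters of near-identical copies, among which fragments can be shared, so single values of SAUR21, SAUR23 and SAUR24 are uncertain. Among the rises, AT4G12410 and SAUR78 went up by 2.96 and 0.99.

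Other growth regulators moved in the same direction in part. All 8 type-A response regulator genes tested had a negative log2 fold change, with a median of -0.96, and 4 fell, ARR6, ARR16, ARR8 and ARR4. Control 3 stood apart here, with a list median of -0.62 relative to the control mean while control 1 and 2 lay above it. Without it all 8 fell, and without control 1 or flooding 1, or with all 9 samples in one fit, 2 did. ARR7 was at -1.22 (adjusted p in limma 0.07). Of 18 Aux/IAA and GH3 genes 2 rose, IAA6 and IAA19, and 2 fell, IAA29 and IAA16, shares at or below those over all genes (11.4% and 17.2%). Neither rise passed without control 2, control 3 or flooding 2. IAA29 was at 1.73, 1.65 and 1.40 in control and at 0.15, 0.13 and 0.17 under flooding. Of 11 light and growth regulators, HFR1, PRE1, HAT2 and PHYA fell, by 1.88, 1.66, 1.45 and 0.39 on the log2 scale, and PIF5 and HYH rose, by 1.2 and 0.70, while PIF4 was at -0.03.

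Wall-loosening enzymes were split. Of 38 xyloglucan endotransglucosylase (XTH) and expansin genes 12 rose and 9 fell (11.4% and 17.2% over all genes), with a median of 0.01. The rises were XTH and expansin-like A genes. XTH23 rose by 4.02 ± 0.35 and EXLA3 by 4.04 ± 0.41 on the log2 scale, and EXLA2 was at 4.86, 6.91 and 5.38 FPKM in control and at 45.1, 44.5 and 46.5 under flooding. Of the 9 falls 7 were alpha-expansins, among them ATEXPA1 (-1.95), EXPA9 (-1.54), EXPA8 (-1.49) and EXPA5 (-1.37), which loosen walls during growth. The other falls were XTH6 (-0.64) and XTH25 (-0.59). The falls numbered 4 without control 2 and 5 without control 3, and without flooding 3 the counts were 13 rises and 9 falls.

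Plasma membrane aquaporins, which conduct water, fell in 6 of 13 cases (17.2% over all genes), with a median of -0.30. PIP2-1 was at 385, 347 and 391.5 in control and at 233, 307 and 258 under flooding, and PIP2B at 47.2, 48.9 and 45.2 in control and at 27.5, 30.7 and 24.1 under flooding (0.78 lower on the log2 scale). The flooding samples lay below the controls in both genes. After median-of-ratios rescaling, and with the replicate block, 3 of the 13 fell, as they did without control 1, and 2 fell without control 3.

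Among clock genes, morning-expressed LHY and CCA1 rose 1.6-fold and 1.58-fold and LNK1 3.92-fold, and LNK2 and PRR7 rose by 0.67 and 0.57 on the log2 scale. PRR5, RVE2 and ELF3 fell, by 1.05, 1.01 and 0.78. ELF3 was at 31.0, 30.0 and 29.2 in control and at 18.7, 16.4 and 17.3 under flooding. TOC1 was at 0.10 and did not pass the test. In the list of sugar starvation and trehalose-6-phosphate synthase genes, 4 of 13 fell (17.2% over all genes), TPS10 (AT1G60140), KINBETA1, BCAT-2 and KIN10. Without flooding 3 there were 7 falls. The starvation marker ASN1 was at -0.39 over all 6 samples (adjusted p in limma 0.12).

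The medians of housekeeping groups stayed close to that of all genes over the 3 flooding samples together. By sample they differed. Relative to the control mean, the ribosomal protein median was 0.0055, 0.18 and -0.18 in flooding 1, 2 and 3. That of the photosystem and antenna genes was -0.25, -0.24 and 0.19. Of 43 nuclear photosystem and antenna genes 4 rose and 1, PSBP2, fell (11.4% and 17.2% over all genes), with a median of -0.10. The rises were all antenna genes, LHCB2.4, LHCB2.2, LHCB3 and LHCB2.1, by between 0.70 and 1.18 on the log2 scale. LHCB2.1 and LHCB2.2 are near-identical copies, so their values cannot be fully told apart. Without flooding 3, 16 photosystem and antenna genes fell, and without control 3, 2 rose. Of 233 ribosomal protein genes 0 rose and 13 fell (11.4% and 17.2% over all genes), the falls by at most 0.50. After median-of-ratios rescaling 1 fell and 9 rose. With the replicate block, or without any 1 control or flooding 1, at most 1 fell, without flooding 2, 4 fell, and without flooding 3, 21 fell and 15 rose. Among the falls were RPL12C (AT3G27850) and RPL17, proteins of the chloroplast ribosome.

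Of 84 genes of the chloroplast genome 4 rose and 2 fell (11.4% and 17.2% over all genes), with a median of -0.20. Those that rose were PSBN, PSBA and both 16S rRNA copies. Leaving out 1 sample gave 0 to 8 rises and 0 to 18 falls, with both highest counts without flooding 3. PSBA, of the photosystem II core, was at 12.6, 18.2 and 10.97 in control and at 41.6, 64.4 and 20.9 under flooding. The libraries were enriched for poly(A) RNA, which chloroplast transcripts mostly lack. Cyclins and cell cycle kinases gave 3 rises and 6 falls of 60, below the shares over all genes (11.4% and 17.2%), and the inhibitor genes KRP7, KRP2 and KRP4 fell by 1.13, 1.12 and 0.82 on the log2 scale while KRP6 rose by 1.02. Without flooding 3 there were 5 rises, and without control 2 or control 3 there were 3 falls. Of the 60, 11 (18.3%) lay above all controls in flooding 1 and 2 and below them in flooding 3, as in many hypoxia genes, against 5.74% of all genes tested.

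Whether these changes went beyond those under submergence was tested by comparing the flooding with the submergence samples. By limma on these 6 samples 0 of 18865 genes passed an adjusted p of 0.05, with 2780 (14.7%) at an unadjusted p under 0.05. With all 9 samples in one fit, which shares the spread of the controls, 231 genes (1.22%) passed, 90 higher and 141 lower under flooding. Statements on differences between the stresses therefore depend on which samples set the spread. Both stresses are measured against the same controls, so their fold changes share them.

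The genes that passed with all 9 samples included regulators of defense, although the share of such genes among the 231 was not counted. NAC090 was at 33.3, 32.7 and 38.2 FPKM under flooding and at 5.95, 8.91 and 8.87 under submergence, with 1.83, 1.56 and 3.37 in control. WRKY46 was at 139, 134 and 126 under flooding and at 19.8, 61.4 and 31.8 under submergence. JAZ7 was at 40.5, 30.4 and 69.3 under flooding and at 9.26, 9.96 and 19.2 under submergence. MPK11 and the glutaredoxin gene GRXC9 were also higher under flooding. In each of these 3 genes given by sample, flooding lay above submergence without overlap. The largest rise among genes with a mean of at least 5 FPKM in 1 group was that of the chloroplast rRNA gene RRN16S.2 (log2 difference 2.29), and PSBA was also higher (2.00). Of the 141 genes lower under flooding, the largest differences at this level were AT4G34950 (-1.44), AT4G19820 (-1.31), ZAT5 (-1.18) and BEE1 (-1.16). RBOHD also passed, at 58.2, 79.2 and 74.99 under submergence, all below the flooding samples, with a log2 difference of 1.07 (adjusted p in limma 0.033 with all 9 samples and 0.11 with these 6).

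CYP94C1, XTH22 and HRE1 did not pass in either fit. CYP94C1 was at 108, 71.8 and 188 FPKM under flooding and at 80.1, 69.7 and 190.4 under submergence, a log2 difference of 0.15. XTH22 was at 911, 1713 and 1396 under submergence, within 0.21 of flooding on the log2 scale. HRE1 was at 19.8, 24.4 and 24.1 under submergence and at 15.8, 16.9 and 16.1 under flooding, 0.48 lower under flooding with an unadjusted p of 0.0035. Among the lists, the median difference between flooding and submergence was 1.02 for the 3 ROS-producing oxidases and 0.77 for the zinc finger genes. It was 0.59 for the AP2/ERF factors, 0.51 for the immune receptors and MAP kinases and 0.50 for JA signaling. The lowest medians were -0.52 for the type-A response regulators and -0.51 for the sugar starvation list. That of the SAUR genes was -0.35, against -0.06 over all genes.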

How the data were processed

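Shoots of 9 samples (3 control, 3 flooding, 3 submergence) were sequenced from stranded, poly(A)-enriched libraries. Per the methods, read trimming by the authors was followed by STAR mapping on TAIR10 and by gene-level counting in featureCounts, whereas the name of the deposited table refers to RSEM. The authors deposited FPKM per gene, given to 2 decimals, with gene spans (another unit, in bp) in a Length column of the deposited table that was used only for the median span. The submitters' processing notes also name DESeq2 1.20.0, which was not used here. Column names give no treatment: Stress2 was taken as flooding and Stress1 as submergence from a plot heading in the study's supplement. All per-sample columns were used, and gene ontology columns were not. Depth per sample is unknown from FPKM. Sums of FPKM were 7.61e+05 to 7.86e+05 per sample in the 6 samples.

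The 18806 genes whose FPKM averaged 0.5 or more were tested with limma 3.58.1 (R 4.3.3) on log2(FPKM + 0.1), with an eBayes trend, 3 flooding against 3 control samples, two-sided, and Benjamini-Hochberg adjustment over all genes tested at 0.05. The fold changes on this scale understate changes of low genes. The scripts were tested on simulated data. The members and lists were chosen with earlier results of these data known. Genes were named by rule: the top 12 rises and top 10 falls that passed the test, reached 5 FPKM as the mean of 1 group and had groups that did not overlap, plus marked members of each list and up to 4 others called with the largest change. Members outside this rule that are named to complete a count were chosen after their values were seen. Of the lists built on name patterns 11 genes were dropped because their product is another. Both the start and the end of the gene were the same in RefSeq (TAIR10.1) and in the deposited table for 99.9% of matched nuclear genes. Alternatives were another pseudocount, filter, scaling, prior, sample set and the replicate block. Families in the closing section were taken from RefSeq product text after values were seen.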

Additional observations from a re-analysis of the deposited data

How the results depend on the processing

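Over the 14 alternatives tried, 130 of the 162 called genes that were named kept their call in the same direction, 32 lost it under at least 1 and 0 reversed. Of 34 uncalled named genes, 12 gained a call, 9 of them without flooding replicate 3. Without 1 sample the up-regulated count lay between 1595 and 2697, the down-regulated count between 1643 and 3436 (lowest without a control), and the count changed at least 2-fold between 1496 and 1754. Flooding against submergence gave 0 genes by limma, with 2780 at an unadjusted p under 0.05, and 231 with all 9 samples in one fit. The cause was not tested. Same-numbered flooding and control samples deviated together with r of 0.11, -0.15 and -0.08, so the numbers were not taken to pair these samples. Such an r was not computed for flooding and submergence. There the hypoxia list medians ran alike by number, at 1.47, 1.14 and -0.71 in flooding 1, 2 and 3 and at 1.6, 1.16 and -0.27 in submergence 1, 2 and 3. A fit with the replicate block gave 2007 up and 2507 down, and 0 genes between flooding and submergence. Of 32 list medians 12 changed sign under at least 1 alternative. The paper reports mapped reads as a range over the libraries, but the read count behind each value is not given. Low FPKM therefore carry a counting error that was not estimated.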

Other observations

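Families grouped by RefSeq product text, chosen after values were seen, add groups that the comparison above does not hold. Of 64 TIR-NBS-LRR genes tested, which encode intracellular immune receptors, 33 rose (51.6%, against 11.4% of all genes) and 3 fell, with a median log2 fold change of 0.55, and the number that rose was 30 to 35 over the alternatives. AT5G41750 was at 4.90, 4.33 and 5.93 FPKM in control and at 134, 101 and 125 under flooding. Its neighbour AT5G41740 was at 8.41, 7.94 and 9.04 in control and at 133, 100.2 and 121 under flooding. Both were far above every control sample. Such receptors lie in clusters of related copies, so fragments may be shared between them. CC-NBS-LRR receptors showed 5 rises and 4 falls of 23 (11.4% and 17.2% over all genes), with a median of 0.03, and 2 rises and 2 falls without control 2.

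F-box genes, whose products choose proteins for breakdown, leaned the other way, with 65 of 148 down (43.9%, against 17.2% of all genes) and 4 up, and a median of -0.41. The number that fell was 49 after median-of-ratios rescaling and 28, 28 and 36 without control 2, 3 and 1. TIR1, an auxin receptor, was at 42.6, 42.8 and 47.6 in control and at 16.1, 18.1 and 15.3 under flooding, with no overlap. KUF1, induced by karrikins, fell by 1.47 on the log2 scale. The members that rose were FBS1, AT3G03030, AT2G27310 and AT5G67140. FBS1, a stress-induced F-box gene, was at 8.61, 5.80 and 9.30 in control and at 117, 98.7 and 125 under flooding.

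Of 22 exocyst subunit genes, which act in secretion, 9 rose and 1 fell (11.4% and 17.2% over all genes), with a median of 0.08. Arabinogalactan protein genes, of the cell surface, showed 12 rises and 3 falls of 35 (11.4% and 17.2% over all genes), with a median of 0.27, and the falls numbered 0 to 3 when 1 sample was left out.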
